A study of Mus musculus with 16 samples.

Results

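The miR-378 family was followed in the RAW264.7 line of macrophage-like mouse cells, with or without cytokines of allergic (Th2) inflammation and the alarm cytokine IL-33. Its members were chosen by their names on the array, mmu-miR-378a-3p, mmu-miR-378a-5p, mmu-miR-378b and mmu-miR-378d (written without the prefix from here on). They are 4 of the 1247 mouse miRNAs on the array. The 4 groups are called Th2_IL33, Th2, Media_IL33 and Media, with 4 arrays in each. Th2 and Th2_IL33 cells were grown for 48 h with IL-4 and IL-13 at 10 ng per ml, and Media and Media_IL33 cells in medium alone. All cells were then washed, and Th2_IL33 and Media_IL33 cells were given murine IL-33 at 20 ng per ml for 4 h. Every group holds 1 array from each of 4 experiments, numbered 1 to 4. All samples came from a single transformed line, which limits them as a model of tissue macrophages.

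MicroRNAs are short RNAs that repress messenger RNAs, mainly through pairing of the seed near their 5′ end. The gene of miR-378a lies inside the gene Ppargc1b, which encodes PGC-1beta, a transcriptional coactivator of mitochondrial and oxidative metabolism. PGC-1beta is known for its part in the metabolic programme of macrophages alternatively activated by IL-4. One hairpin gives both a 3p and a 5p strand. In mouse macrophages miR-378a-3p is known as an IL-4-responsive miRNA that targets the kinase Akt1. The 5p strand is known to target the metabolic regulators ERR-gamma and GABP-alpha. The other members come from genes elsewhere in the genome. The messenger RNA of Ppargc1b was not measured here.

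The mature sequences of the relatives outside Ppargc1b are shown because their near identity sets how far the array can tell the members apart. They are from RefSeq (build GRCm38.p6), written 5′ to 3′, with the seed (bases 2 to 8) in capitals. Of the 4 members, 2 (miR-378b and miR-378d) are shown, and the 2 arms of miR-378a were left out rather than found missing. A further relative, miR-378c, is on the array too.
miR-378b: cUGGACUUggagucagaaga
miR-378c: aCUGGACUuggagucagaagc
miR-378d: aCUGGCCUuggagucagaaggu
The seeds were UGGACUU in miR-378b, CUGGACU in miR-378c and CUGGCCU in miR-378d, so no pair of them shares a seed as annotated. The sequences are still alike. miR-378b and miR-378c share an unbroken run of 19 bases, which takes in both of their seeds. Those 2 seeds differ by where the annotated miRNA starts, not by the bases of the run. Each of the 2 miRNAs shares a run of 14 bases with miR-378d. miR-378b is annotated at chr11:88352839-88352858 on the plus strand and overlaps the gene Msi2. miR-378d lies at chr10:126710355-126710376 on the minus strand and overlaps no other gene of the RefSeq table. miR-378c lies at chr14:46954905-46954925 on the minus strand and overlaps Samd4 and Gm52120. These are overlaps of position, and the strands of the genes were not compared.

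Each member was read by 2 probes of unequal length, with 20 spots per probe. The designed probes of the relatives are shown because they pair with the alike part of these miRNAs. The capital marks the base by which the longer probe extends the shorter one.
miR-378b, 16 bases: tcttctgactccaagt
miR-378b, 17 bases: tcttctgactccaagtC
miR-378c, 15 bases: gcttctgactccaag
miR-378c, 16 bases: gcttctgactccaagT
miR-378d, 16 bases: accttctgactccaag
miR-378d, 17 bases: accttctgactccaagG
The 2 probes of miR-378a-3p are shorter, with 13 and 14 bases. Both miR-378d probes hold the whole 14-base probe of miR-378a-3p, and the probes of miR-378b and miR-378c share 13 of its bases in a run. The 3p members are therefore near-identical targets, and how much of the signal of miR-378b and miR-378d came from miR-378a-3p was not tested. The shared runs were counted between probes, so they cannot exceed 14 bases, and pairing with miR-378a-3p itself was not counted. miR-378c, whose probes share the same 13 bases, was above background on 0 of the 16 arrays, with summed intensities of -2.42 to 2.03. The probes of miR-378a-5p, of 17 and 18 bases, share a run of only 3 bases with that probe, so the 5p arm is read apart.

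Values are relative signals, which are spot intensities summed over a miRNA's probes and divided by the array's 75th percentile, taken over 178 miRNAs that were detected on every array. A value of 1 is the signal at that percentile, and values under a floor of 0.0353 were set to it. Between 206 and 256 miRNAs were detected per array, and no spot was saturated. The number of arrays limits the precision. Across the 231 tested miRNAs, the median correlation of an array with the others of its group was lowest for Media 3 (0.874). It was 0.920 for both Media 1 and Media 2, 0.945 for Th2_IL33 2 and 0.968 to 0.991 for the other 12 arrays. The arrays come from 2 slides, and slide 1 holds no Th2_IL33 array. Myeloid miR-142a-3p, miR-142a-5p and miR-223-3p were detected on all 16 arrays, with miR-142a-5p above background on 15. Myeloid miR-223-5p was detected on 0 of the 16. Of 15 markers of other cells, 15 were never above background. Muscle miR-206-3p among them was detected on 11 of 16 arrays, with a Media mean of 0.0745. The sums of the 15 were 0.529 to 0.557 on Th2_IL33 arrays and 0.543 to 0.560 on Th2 arrays. They were 0.536 to 0.567 on Media_IL33 and 0.555 to 0.573 on Media arrays, where 15 floor values sum to 0.529.

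The 3 members read as 3p arms were higher in cells grown in Th2 cytokines, without and with IL-33, and IL-33 itself changed none of them past the threshold. The fold was 2.10 for miR-378a-3p, 2.24 for miR-378b and 2.28 for miR-378d without IL-33, and 2.29, 2.22 and 2.40 with it. For miR-378d only 2 of 4 Media arrays were above background, and the folds of miR-378b rest on 1 probe. For the 5p arm of miR-378a no such rise was shown. Its groups all overlapped, and it passed no comparison with all 16 arrays. Its confidence intervals on the log2 scale were wide. They ran from 0.20 to 4.19 in Th2 against Media and from -2.68 to 1.31 in Th2_IL33 against Media_IL33. Both contain the difference of miR-378a-3p (1.07 and 1.19), so a difference between the arms was not shown either. These are bulk RNA samples, in which a change in the number of cells that carry a miRNA and a change in its amount per cell cannot be told apart.

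miR-378a-3p was detected and above background on all 16 arrays. On the Th2 arrays of experiments 1 to 4 its relative signal was 0.353, 0.376, 0.329 and 0.262, against 0.166, 0.180, 0.117 and 0.168 on the Media arrays. The lowest Th2 array, that of experiment 4, lay above the highest Media array, that of experiment 2, so the groups did not overlap. With IL-33 the values were 0.336, 0.352, 0.250 and 0.334 on Th2_IL33 arrays and 0.121, 0.130, 0.150 and 0.152 on Media_IL33 arrays. Here, too, every array of Th2-grown cells lay above every array of medium-grown cells. The group means were 0.318 ± 0.0457 in Th2_IL33, 0.330 ± 0.0492 in Th2, 0.138 ± 0.0154 in Media_IL33 and 0.158 ± 0.0280 in Media (SD, n = 4 each). From high to low the order was Th2, Th2_IL33, Media and Media_IL33. Th2 and Th2_IL33 did not differ beyond their spread, nor did Media and Media_IL33, and the step between these pairs exceeded it.

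miR-378b, the relative that overlaps Msi2, showed the same split. Its relative signal was 0.222, 0.243, 0.221 and 0.171 on the Th2 arrays of experiments 1 to 4, against 0.116, 0.110, 0.0624 and 0.101 on the Media arrays. On Th2_IL33 arrays it was 0.205, 0.213, 0.172 and 0.207, against 0.0736, 0.0842, 0.105 and 0.0983 on Media_IL33 arrays. In neither pair did the groups overlap, and Media 3 was the lowest array of all 16. The means were 0.199 ± 0.0182 in Th2_IL33, 0.214 ± 0.0306 in Th2, 0.0903 ± 0.0142 in Media_IL33 and 0.0974 ± 0.0241 in Media (SD, n = 4 each). The order of the groups was that of miR-378a-3p, with the same neighbours not separated.

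miR-378d had relative signals of 0.222, 0.227, 0.203 and 0.147 on the Th2 arrays, against 0.0972, 0.0921, 0.0654 and 0.0949 on the Media arrays. With IL-33 it had 0.188, 0.211, 0.162 and 0.198 on Th2_IL33 arrays and 0.0690, 0.0702, 0.0875 and 0.0900 on Media_IL33 arrays. Neither pair of groups overlapped. Media 2 and Media 3 were detected but not above background for miR-378d, so its Media level rests on 2 of 4 arrays above background. The means were 0.190 ± 0.0205 in Th2_IL33, 0.200 ± 0.0368 in Th2, 0.0792 ± 0.0111 in Media_IL33 and 0.0874 ± 0.0148 in Media (SD, n = 4 each), in the same order of groups.

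**Figure D1:**
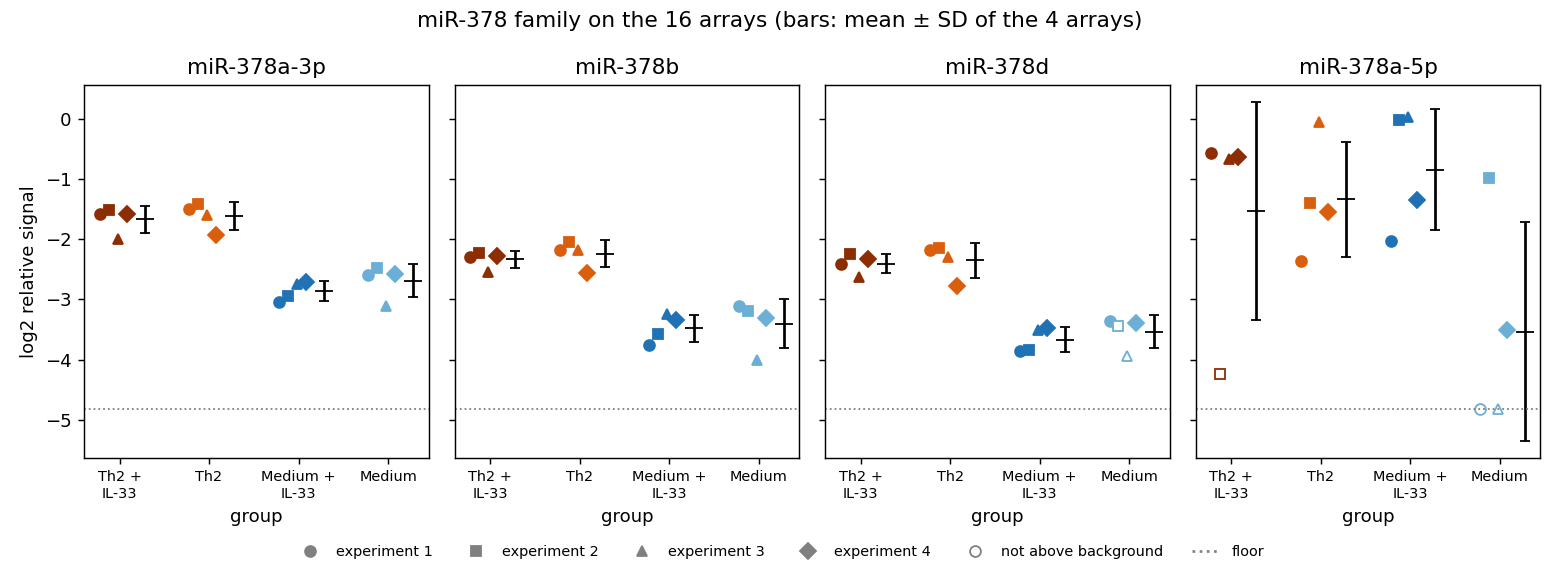
Relative signal (log2 scale, vertical axis) of the 4 members on each array, by group, with symbols for the experiments, open symbols for arrays not above background, black bars for the mean ± SD of 4 arrays and a dotted line at the floor. In the 3 panels of 3p members all 8 arrays of Th2-grown cells lie above all 8 of medium-grown cells, while miR-378a-5p overlaps between all groups and is at the floor on Media 1 and Media 3.

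The effect of Th2 cytokines without IL-33 was tested by setting Th2 against Media. miR-378a-3p rose by 1.07 ± 0.16 on the log2 scale (SE, 95% confidence interval 0.72 to 1.42, limma adjusted p = 0.000254). miR-378b rose by 1.16 ± 0.19 (0.76 to 1.56, adjusted p = 0.000417) and miR-378d by 1.19 ± 0.17 (0.83 to 1.55, adjusted p = 0.000172). All 3 of these members were called, against 8.66% of the 231 tested miRNAs called as higher, and all 3 had groups that did not overlap, against 9.09%. By the size of the unadjusted p they stood at ranks 9, 10 and 6 of 231. Their median difference was 1.16, beside a median of 0.063 over all tested miRNAs. The 3 members share probe bases, so these counts and this median do not rest on separate measurements.

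Each was higher in 4 of 4 experiments. For miR-378a-3p the Th2 over Media fold was 2.13, 2.09, 2.82 and 1.56 in experiments 1 to 4, and for miR-378b 1.91, 2.21, 3.54 and 1.68. For both the fold was largest in experiment 3, where the Media array is the one least like its group, and smallest in experiment 4. For miR-378d it was 2.28 and 1.54 in experiments 1 and 4, and no fold is given for the others, whose Media arrays were not above background. Without Media 1, Media 3 and Th2_IL33 2 (the 3 arrays that stood apart in earlier results) the differences were 0.91, 1.01 and 1.07, all past the threshold (adjusted p 0.00204, 0.000888 and 0.000888). Within slide 1 (3 arrays of each group) they were 1.21, 1.37 and 1.39 and passed. On slide 2, with 1 Th2 array and Media 1 alone, they were 0.66, 0.55 and 0.59 and did not pass (adjusted p 0.411, 0.397 and 0.342). With normexp background correction they were 0.76, 0.71 and 0.71 and passed.

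The same question in the presence of IL-33 was asked of Th2_IL33 against Media_IL33, which share no array with the first comparison but share its experiments and its estimate of the spread. miR-378a-3p rose by 1.19 ± 0.16 (SE, 95% confidence interval 0.84 to 1.54, limma adjusted p = 8.79e-05). miR-378b rose by 1.15 ± 0.19 (0.75 to 1.55, adjusted p = 0.000525) and miR-378d by 1.27 ± 0.17 (0.90 to 1.63, adjusted p = 8.27e-05). Again all 3 were called, against 8.23% of tested miRNAs called as higher, and their groups did not overlap, against 14.3%. Their median was 1.19, beside 0.080 over all tested miRNAs. Here, too, the 3 members are not separate measurements.

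In experiments 1 to 4 the Th2_IL33 over Media_IL33 fold was 2.77, 2.71, 1.67 and 2.19 for miR-378a-3p. It was 2.78, 2.53, 1.64 and 2.10 for miR-378b, and 2.73, 3.00, 1.85 and 2.20 for miR-378d. Experiment 3, which had the largest fold without IL-33, had the smallest one here. Within slide 2, which holds 4 Th2_IL33 and 2 Media_IL33 arrays, the differences were 1.33, 1.33 and 1.44 and passed. With normexp background correction they were 0.87, 0.75 and 0.80 and passed.

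The contrasts that change both growth and stimulation gave the same step. In Th2_IL33 against Media the log2 differences were 1.02 for miR-378a-3p, 1.07 for miR-378b and 1.13 for miR-378d (limma adjusted p 0.000336, 0.000651 and 0.000168), and all 3 were called, against 9.52% of tested miRNAs as higher. In Th2 against Media_IL33 they were 1.25, 1.25 and 1.32 (adjusted p 5.74e-05, 0.000217 and 4.81e-05), again 3 called, against 8.66%. These contrasts reuse the arrays of the first pair and are given side by side, not as further support. The split of calls over all miRNAs moved with the scaling. With quantile normalization 19 were higher and 11 lower in Th2 against Media (20 and 2 as processed here), 16 and 5 in Th2_IL33 against Media_IL33 (19 and 3), 23 and 18 in Th2_IL33 against Media (22 and 2), and 15 and 10 in Th2 against Media_IL33 (20 and 8).

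IL-33 was tested in each growth condition. In medium-grown cells (Media_IL33 against Media) the differences were -0.17 for miR-378a-3p (95% confidence interval -0.52 to 0.18), -0.08 for miR-378b (-0.48 to 0.32) and -0.14 for miR-378d (-0.50 to 0.23), each with a limma adjusted p of 1. None of the 4 members was called, against 1.73% of tested miRNAs. In Th2-grown cells (Th2_IL33 against Th2) they were -0.05 (-0.40 to 0.30), -0.10 (-0.50 to 0.30) and -0.06 (-0.42 to 0.30), also with an adjusted p of 1 and 0 members called, against 1.73%. These intervals leave room for a small change either way. Within the slides the signs were not stable. In medium-grown cells the 3 differences were -0.0071, 0.20 and 0.097 on slide 1 and -0.40, -0.56 and -0.48 on slide 2. In Th2-grown cells they were 0.27, 0.22 and 0.37 on slide 2. Slide 2 holds only 1 Media and 1 Th2 array, so each of its differences rests on a single array without IL-33. All 4 Th2_IL33 arrays are on slide 2, while 3 Th2 arrays are on slide 1.

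The interaction takes the effect of IL-33 in medium-grown cells from its effect in Th2-grown cells. It was 0.12 ± 0.23 for miR-378a-3p, -0.01 ± 0.26 for miR-378b and 0.08 ± 0.24 for miR-378d (SE, limma adjusted p 0.995 each). None of the 231 miRNAs passed this test (0%), and 5 had an unadjusted p under 0.05. The 95% confidence intervals of the 3 members together spanned -0.58 to 0.61. A difference in the Th2 response between cells with and without IL-33 was not shown.

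**Figure D2:**
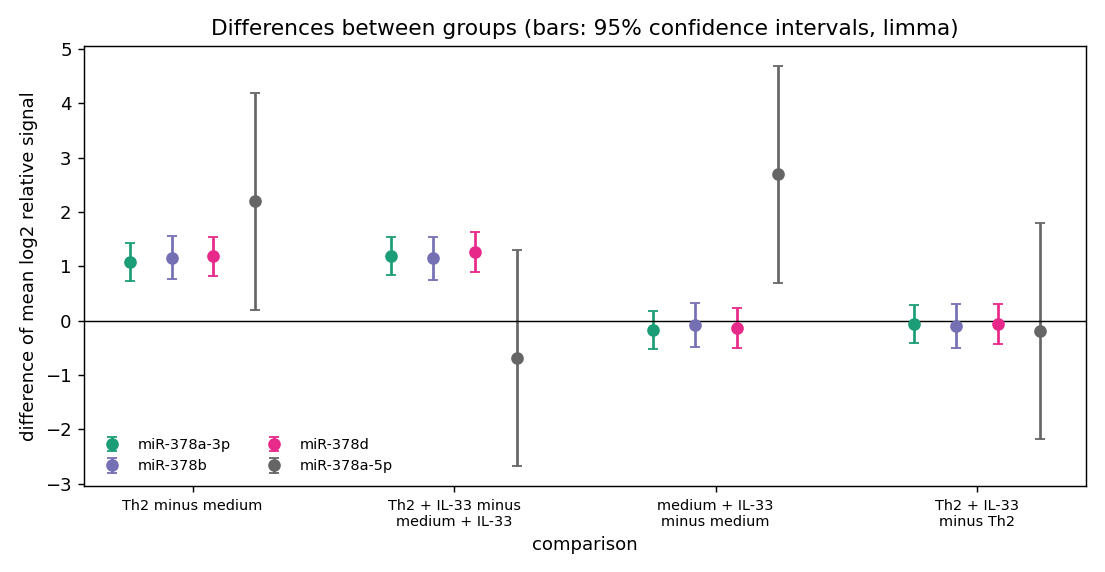
Differences between groups in mean log2 relative signal (vertical axis) for each member, with limma 95% confidence intervals. In the 2 comparisons of Th2 cytokines the 3p members lie between 1.07 and 1.27 with intervals above 0, in the 2 comparisons of IL-33 they lie near 0, and the intervals of miR-378a-5p are several times wider.

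The 3p members moved together. After each profile was centred on its own mean over the 16 arrays, miR-378a-3p and miR-378d differed by 0.0645 log2 units on average and miR-378a-3p and miR-378b by 0.0756. The median over the 227 tested miRNAs that are no members was 0.548. Their probes share most of their bases, so these are not separate measurements. Whether the members changed unequally was tested on the log2 ratio of each to miR-378a-3p, with an exact two-sided permutation test in which 4 against 4 arrays allow no p below 0.0286. After adjustment over the 6 tests a single ratio at that limit would have 0.171, so no ratio alone could pass 0.05. For miR-378d the ratio was higher by 0.12 in Th2 than in Media (exact permutation p = 0.114, 0.343 adjusted over 6 tests) and by 0.07 in Th2_IL33 than in Media_IL33 (exact permutation p = 0.229, adjusted 0.429). For miR-378b it differed by 0.09 (exact permutation p = 0.371, adjusted 0.446) and -0.04 (exact permutation p = 0.514, adjusted 0.514). These tests could not settle whether the members changed unequally.

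Of the 6 probes of the 3p members, 4 had a median of at least 10 of 20 spots above background in every group, and folds are given for these. The 13-base and the 14-base probe of miR-378a-3p were 2.14-fold and 2.06-fold higher in Th2 than in Media, and 2.26-fold and 2.33-fold higher in Th2_IL33 than in Media_IL33. Across the 16 arrays their centred log2 profiles never parted by more than 0.0973. For miR-378d the 16-base probe was 2.27-fold higher in Th2 than in Media, and 2.39-fold higher in Th2_IL33 than in Media_IL33. The 17-base probe of miR-378d had 1 to 3 of its 20 spots above background on Media arrays and 0 to 2 on Media_IL33 arrays, so no fold is given for it. For miR-378b the 17-base probe was 2.14-fold higher in Th2 and 2.20-fold higher in Th2_IL33. Its 16-base probe never had more than 2 of 20 spots above background, so the values of miR-378b rest on 1 probe. Where at least 18 spots were above background, the spot to spot coefficient of variation had a median of 11.1% for miR-378a-3p, 10.3% for miR-378b and 13.8% for miR-378d.

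**Figure D3:**
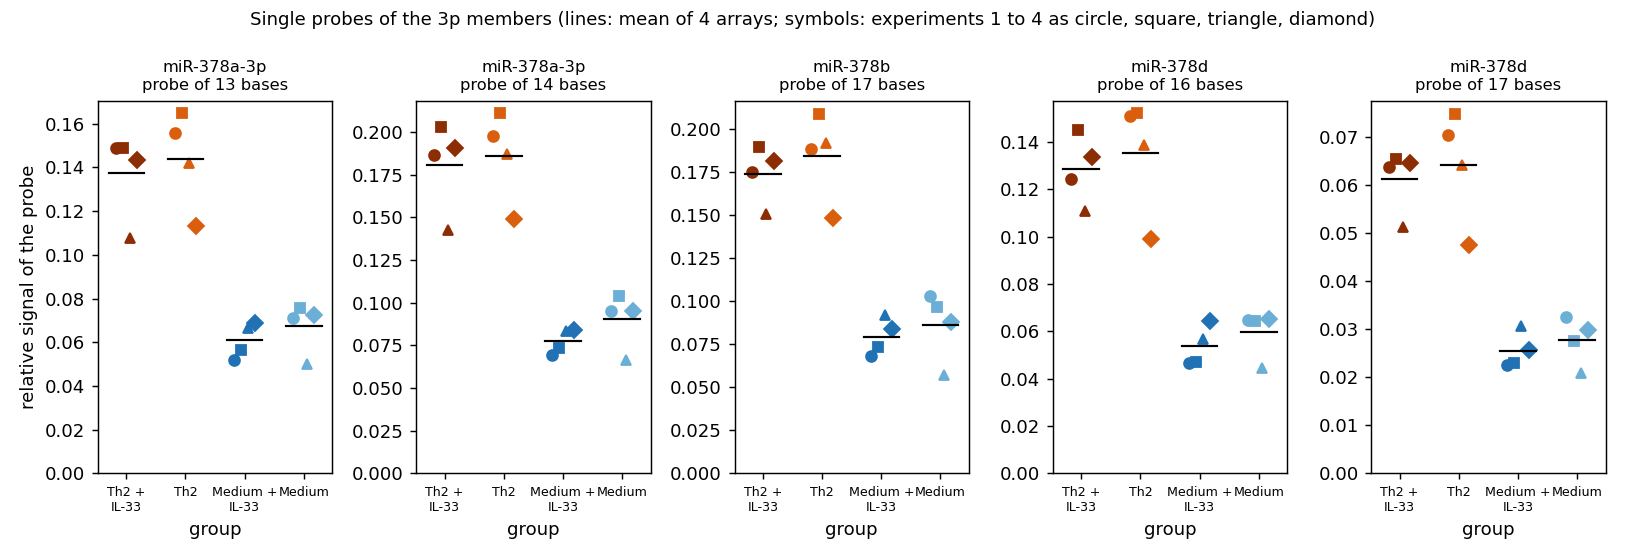
Relative signal of single probes of the 3p members on each array (vertical axes, from 0, a scale for each panel), by group, with lines at the mean of 4 arrays. The 16-base probe of miR-378b, with at most 2 of 20 spots above background, is left out, and the 17-base probe of miR-378d had at most 3 of 20 spots above background on the arrays of medium-grown cells. In each of the 5 panels the arrays of Th2-grown cells lie above those of medium-grown cells.

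The 5p arm of miR-378a varied more between the arrays of a group. Its relative signal was 0.680, 0.0528, 0.630 and 0.642 on the Th2_IL33 arrays of experiments 1 to 4 and 0.246, 0.984, 1.02 and 0.394 on the Media_IL33 arrays. It was 0.195, 0.378, 0.970 and 0.343 on the Th2 arrays and 0.0353 (the floor), 0.509, 0.0353 (the floor) and 0.0875 on the Media arrays. All groups overlapped. It was above background on 3 of 4 Th2_IL33, 4 of 4 Th2, 4 of 4 Media_IL33 and 2 of 4 Media arrays, and the arrays at the floor, Media 1 and Media 3, had summed intensities of 12.1 and 4.23. The means were 0.501 ± 0.300 in Th2_IL33, 0.472 ± 0.342 in Th2, 0.661 ± 0.399 in Media_IL33 and 0.167 ± 0.229 in Media (SD, n = 4 each). Its residual SD in the model was 1.46 log2 units, the second largest of the 231 tested miRNAs, whose median was 0.256. The residual SD of miR-378a-3p was 0.23, of miR-378b 0.27 and of miR-378d 0.24. Where at least 18 spots were above background, the coefficient of variation between spots had a median of 10.9%.

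For miR-378a-5p the Th2 minus Media difference was 2.20 ± 0.93 (SE, 95% confidence interval 0.20 to 4.19, limma adjusted p = 0.159), higher in 3 of 4 experiments. Because 2 Media arrays were at the floor, this value depends on it and no fold is given. The same holds for the other differences of miR-378a-5p from Media. With the floor at the 5th percentile the Th2 minus Media difference was 1.94 and that of Media_IL33 minus Media 2.44. Without Media 2 the difference was 3.05 and passed (adjusted p = 0.0333), and without the 3 arrays that stood apart it was 0.91 and did not (0.498). Within the slides it was 1.84 and 3.28. In Media_IL33 against Media it was 2.69 ± 0.93 (0.70 to 4.69, adjusted p = 0.353), higher in 4 of 4 experiments. Without Media 2 this became 3.55 and passed (adjusted p = 0.0448), and without those 3 arrays it was 1.40 (0.667). Within the slides it was 2.45 and 3.80. A single Media array thus decided both calls. The 3 arrays that stood apart are also those with the lowest signal of miR-378a-5p. Leaving out Media 1 and Media 3 therefore had to shrink both differences.

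In Th2_IL33 against Media_IL33 the 5p arm differed by -0.69 ± 0.93 (SE, 95% confidence interval -2.68 to 1.31, limma adjusted p = 0.634), higher in 2 of 4 experiments. Without Th2_IL33 2 the sign turned (0.22, adjusted p = 0.933), and within slide 2 the difference was -0.50. In Th2_IL33 against Th2 it was -0.19 ± 0.93 (-2.18 to 1.80, adjusted p = 1), and without Th2_IL33 2 it was 0.72 (0.997). In Th2_IL33 against Media it was 2.01 ± 0.93 (adjusted p = 0.173), and it passed without Media 2 (2.86, adjusted p = 0.0402) or without Th2_IL33 2 (2.91, 0.0269). In Th2 against Media_IL33 it was -0.50 ± 0.93 (adjusted p = 0.826). The interaction was -2.88 ± 1.32 (-5.70 to -0.06, adjusted p = 0.995), negative in 4 of 4 experiments, and -0.69 without the 3 arrays that stood apart. Its size depends on the floor through Media 1 and Media 3. With the floor at the 5th percentile the interaction was -2.63 and the Th2_IL33 minus Media difference 1.75.

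The ratio of the 5p to the 3p arm of miR-378a was tested in the same family of 6, with the same limits on p. Its log2 value was lower by 1.88 in Th2_IL33 than in Media_IL33, with means of 0.14 ± 1.92 and 2.02 ± 0.96 (SD, n = 4 each, exact permutation p = 0.0571, adjusted 0.343). Without IL-33 it was higher by 1.12 in Th2 than in Media, with means of 0.28 ± 1.00 and -0.85 ± 1.65 (exact permutation p = 0.286, adjusted 0.429). The Media mean includes Media 1 and Media 3, where the 5p arm was at the floor. With the floor at the 5th percentile this difference was 0.87. The 2 arms have different probes, so only differences in this ratio can be read, not its level.

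The miRNAs whose profile over the 16 arrays was nearest to that of miR-378a-3p, by the mean absolute difference of centred log2 values, were miR-99a-5p (0.146), miR-100-5p (0.148), miR-125b-5p (0.211), miR-223-3p (0.230) and let-7c-5p (0.236). miR-99a-5p and miR-100-5p belong to the miR-99 family, which is known to target mTOR, and miR-223-3p is a miRNA of myeloid cells. These 5 were picked for likeness over these same 16 arrays, so their similar group differences follow from that choice and are no further evidence. The relative signal of miR-99a-5p was 4.20, 4.55, 3.98 and 4.18 on Th2 arrays, against 2.63, 2.15, 1.39 and 2.00 on Media arrays. Its Th2 minus Media difference was 1.08 (limma adjusted p = 0.000177), and those of the others were 1.01, 0.75, 1.13 and 0.65 (adjusted p 0.00124, 0.00495, 0.00495 and 0.00838). With IL-33 the 5 differences were 1.14, 0.89, 0.72, 1.08 and 0.70 (adjusted p 8.79e-05, 0.00417, 0.00678, 0.00687 and 0.00621). None passed with IL-33 as the stimulus (adjusted p of 1 in both growth conditions).

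The list nearest to miR-378a-5p was a different one: miR-3063-3p (0.239), miR-30b-3p (0.479), miR-302c-3p (0.509), miR-669b-5p (0.753) and miR-376c-3p (0.916), where the median over the 227 others was 1.33. The arm of its own hairpin, miR-378a-3p, lay at 1.36. The relative signal of miR-3063-3p was 0.637, 0.0353 (the floor), 0.492 and 0.789 on Th2_IL33 arrays and 0.216, 0.740, 0.897 and 0.368 on Media_IL33 arrays. It was 0.311, 0.403, 0.925 and 0.253 on Th2 arrays and 0.0353, 0.336, 0.0353 and 0.0877 on Media arrays, with the floor on Media 1 and Media 3. Both miRNAs were thus lowest on the same 3 arrays, Media 1, Media 3 and Th2_IL33 2, which are among those least like their own groups. None of these 5 neighbours passed in Th2 against Media (limma adjusted p 0.0964 to 0.716). The part of array quality in the pattern of the 5p arm was not tested.

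**Figure D4:**
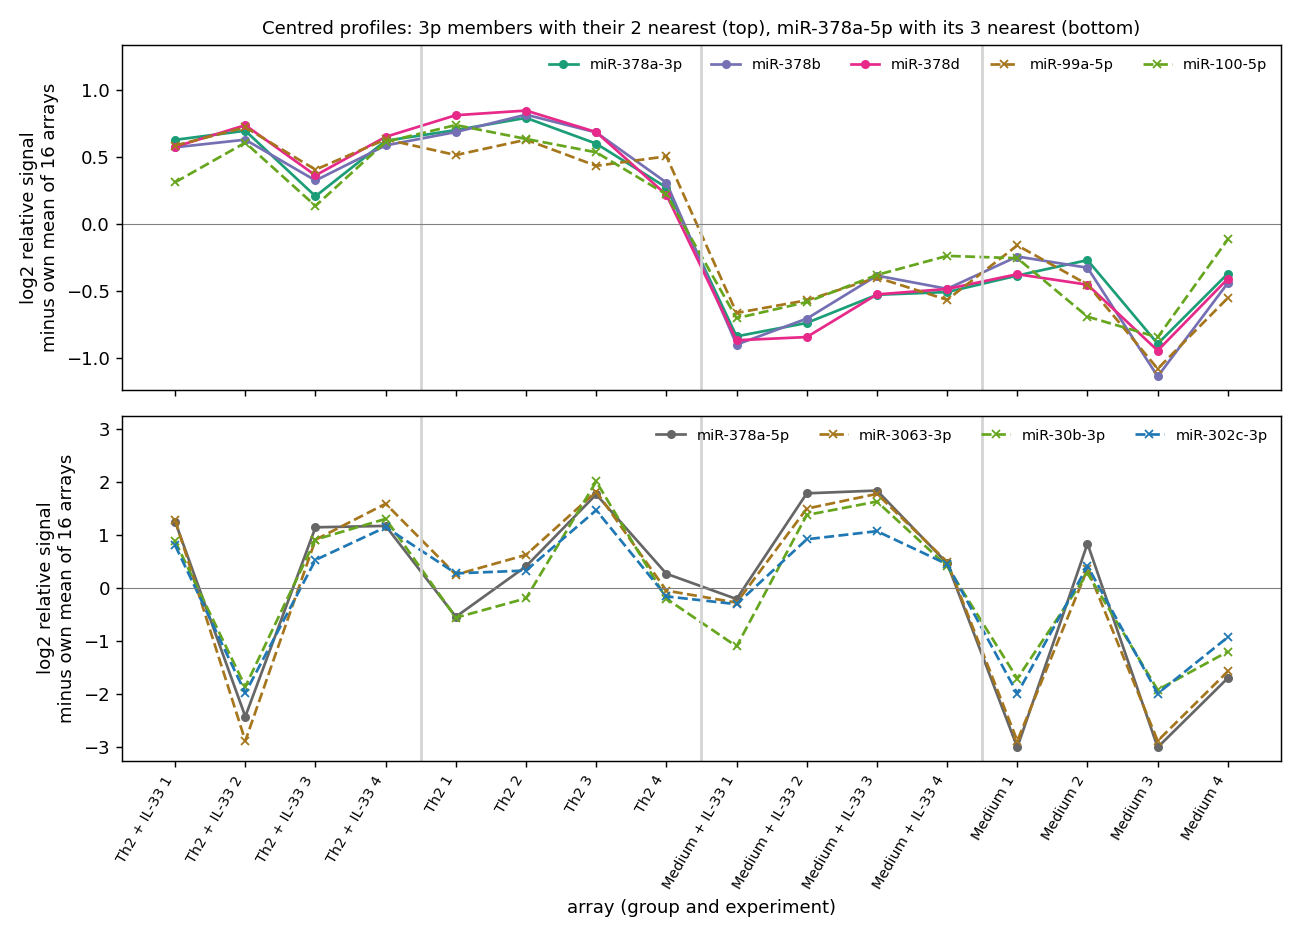
Log2 relative signal minus each miRNA's own mean over the 16 arrays (vertical axis), by array. In the upper panel miR-378a-3p, miR-378b and miR-378d run together and with miR-99a-5p and miR-100-5p, high on the 8 arrays of Th2-grown cells; in the lower panel miR-378a-5p runs with miR-3063-3p, miR-30b-3p and miR-302c-3p and is lowest on Media 1, Media 3 and Th2_IL33 2.

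Other miRNA lists give the setting of the family. Of 9 miRNAs known from alternatively activated macrophages, family members left out, 6 were tested. In Th2 against Media 5 of them rose (let-7c-5p, miR-223-3p, miR-342-3p, miR-34a-5p and miR-511-3p, the last encoded within Mrc1, the gene of the mannose receptor), with a list median of 0.96 beside 0.063 over all. The same 5 rose in Th2_IL33 against Media_IL33 (median 0.94 beside 0.080), and 0 passed with IL-33 in either growth condition. The list was put together with results of these data known and is no independent evidence. Of 11 miRNAs carried by metabolic genes or known to act on PGC-1 or mitochondria, 5 were tested (miR-103-3p, miR-107-3p, miR-23a-3p, miR-210-3p and miR-494-3p). None of the 5 passed in any comparison, where 8.66% of all tested miRNAs were called as higher in Th2 against Media and 8.23% in Th2_IL33 against Media_IL33, so a count of 0 says little of this list. Its medians were 0.18 beside 0.063 over all in Th2 against Media, and 0.16 beside 0.080 in Th2_IL33 against Media_IL33. Of 8 inflammatory miRNAs 6 were tested. In Media_IL33 against Media 4 rose (miR-146a-5p, miR-146b-5p, miR-155-5p and miR-21a-3p, median 1.01 beside 0.023). In Th2_IL33 against Th2 3 rose (miR-146a-5p, miR-155-5p and miR-21a-3p, median 0.66 beside 0.0015). In each of these comparisons 1.73% of all tested miRNAs were called. Some of the 6 also rose with Th2 cytokines. In Th2 against Media 2 did (miR-146b-5p and miR-21a-5p, median 0.45 beside 0.063). In Th2_IL33 against Media_IL33 2 did (miR-146b-5p and miR-155-5p, median 0.39 beside 0.080). No member of the miR-378 family was called in these comparisons of IL-33 (Media_IL33 against Media and Th2_IL33 against Th2). With 1.73% of all tested miRNAs called, that count of 0 says little of the family.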

How the data were processed

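RNA of 16 cultures was labelled with Cy3 and hybridised to 1 Agilent mouse miRNA array each. Per the file headers, the authors read the scans with Feature Extraction 10.7.3.1, and the deposited spot intensity values have background and spatial trend subtracted, with no normalization between arrays. The authors' deposited probe table, made with Partek 6.6 and RMA per the submitters' processing notes, holds intensity values on the linear scale and served as an alternative.

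Control and outlier spots were left out, spots averaged per probe, probes summed per miRNA, and each array divided by its 75th percentile over 178 miRNAs. Values were floored at the 1st percentile of detected signals (log2 of -4.82). A miRNA was tested (231 were) if some group had it detected on each of its 4 arrays. miR-378a-3p, miR-378b and miR-378d were detected on all arrays, and miR-378a-5p passed through 3 of the groups. In R 4.3.3, limma 3.58.1 fitted 1 mean per group to the 16 arrays together, leaving 12 residual degrees of freedom, with Benjamini-Hochberg adjustment per comparison, a threshold of 0.05 and 7 contrasts. The script was tested on simulated data. Per the labels, replicate numbers mark shared experiments. Residuals of same-numbered arrays had a median correlation of 0.112 (range -0.69 to 0.73, 24 pairs), other pairs -0.048 (72 pairs). Named miRNAs are the members, any other miR-378, the 5 nearest profiles of each miR-378a arm and the lists. The members and lists were chosen with earlier results of these data known. Figures were drawn with matplotlib.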

Additional observations from a re-analysis of the deposited data

Results flagged for a closer look

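Within groups of 4 arrays, 3 of 16 combinations of member and group held an outlying array on relative signals not taken to log2. Its gap to the nearest of the others, divided by the group's whole range, was above Dixon's 95% critical value. For independent, normally distributed groups chance gives about 1 in 20. That share is only a guide here, since the 3p members share probe bases and some values were set to the floor. The log2 values used in the tests were not checked in this way. For miR-378a-5p this was Th2_IL33 2, the low array of its group (relative signal 0.0528, gap over range 0.921), and Media 2, the high array of its group (0.509, gap over range 0.890). For miR-378d it was Media 3, the low array of its group (0.0654, gap over range 0.838). Media 3 had the lowest correlation with its own group of all 16 arrays. The part of array quality was not tested.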

How the results depend on the processing

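The differences of the 3p members between cells grown with and without Th2 cytokines kept their sign in every alternative run, and their side of the threshold in all but comparisons within slide 2, which hold as few as 1 array of a group. There miR-378a-3p did not pass in Th2 against Media (0.66, limma adjusted p = 0.411), Th2 against Media_IL33 (1.06, 0.0851) and Th2_IL33 against Media (0.93, 0.0752), miR-378b not in Th2 against Media (0.55, 0.397) and Th2_IL33 against Media (0.77, 0.0728), and miR-378d not in Th2 against Media (0.59, 0.342). The fewer arrays are part of that construction, and the cause was not tested further. With 1 array left out, those of miR-378a-3p were 0.94 to 1.18 in Th2 against Media and 1.13 to 1.30 in Th2_IL33 against Media_IL33. With a replicate block they were 1.07 (adjusted p = 0.00058) and 1.19 (0.000286), and the block changed no call of a member.

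miR-378a-5p, with 1 array left out, had differences of 1.77 to 3.05 in Th2 against Media, 2.26 to 3.55 in Media_IL33 against Media, 1.58 to 2.91 in Th2_IL33 against Media, -1.08 to 0.22 in Th2_IL33 against Media_IL33 and -0.53 to 0.72 in Th2_IL33 against Th2. Without the 3 arrays that stood apart its sign turned in Th2_IL33 against Media_IL33 (0.22) and in Th2_IL33 against Th2 (0.72), and its ratio to miR-378a-3p in Th2 against Media was -0.0059. In Th2_IL33 against Th2 it was also positive with array weights (0.67), a slide block (0.37), slide and replicate blocks together (0.11) and within slide 2 (0.017).

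Differences near 0 changed sign, and the cause was not tested. In Th2_IL33 against Th2 the values turned positive for miR-378a-3p, miR-378b and miR-378d with a slide block (0.095, 0.021 and 0.12), with slide and replicate blocks (0.20, 0.11 and 0.22), within slide 2 (0.27, 0.22 and 0.37) and with scaling to the percentile over all mouse miRNAs (0.053, 0.011 and 0.048). That scaling also moved the median of all miRNAs there to 0.10 (0.0015 as processed here). In the authors' deposited table they were 0.0030 for miR-378a-3p and 0.045 for miR-378b. With 1 array left out the values ranged from -0.16 to 0.057 for miR-378a-3p and from -0.20 to 0.014 for miR-378d. In Media_IL33 against Media miR-378b was 0.0069 with that scaling and 0.20 within slide 1, with a range of -0.28 to 0.016 with 1 array left out, and miR-378d was 0.097 within slide 1. The interaction of miR-378b was 0.073 with array weights, 0.080 in the authors' table, 0.044 with normexp, 0.0038 with that scaling, 0.065 with a slide block, 0.12 with both blocks, 0.78 within slide 2 and 0.11 without the 3 arrays, and -0.12 to 0.19 with 1 array left out. That of miR-378d was -0.065 to 0.21 with 1 array left out. Ratios to miR-378a-3p turned for miR-378b in Th2 against Media with normexp (-0.051) and in Th2_IL33 against Media_IL33 in the authors' table (0.00019). For miR-378d they turned in Th2 against Media in the authors' table (-0.054) and with normexp (-0.049), and in Th2_IL33 against Media_IL33 in the authors' table (-0.022), with normexp (-0.070) and with quantile normalization (-0.067).

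Over the settings with all 16 arrays the number of miRNAs called was 15 to 64 in Th2 against Media (22 as processed here), 12 to 71 in Th2_IL33 against Media_IL33 (22), 1 to 6 in Media_IL33 against Media (4), 2 to 6 in Th2_IL33 against Th2 (4), 16 to 49 in Th2_IL33 against Media (24), 14 to 109 in Th2 against Media_IL33 (28) and 0 to 1 in the interaction (0). Signals of miR-378d on Media arrays and of miR-378a-5p on 3 arrays lay at or near background, which limits their differences. With arrays not above background set to the lowest signal above it, an alternative chosen after seeing the data, miR-378a-5p differed by 1.98 in Th2 against Media (adjusted p = 0.189), while the values of miR-378d, already above that signal, did not move. Slide 1 gave no value for Th2_IL33, and restriction to miRNAs detected on all arrays gave none for miR-378a-5p.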
